A study of Homo sapiens with 60 samples.

Results

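The replication-dependent histone genes encode the bulk of the H1, H2A, H2B, H3 and H4 proteins that package newly made DNA. Members were the protein-coding genes whose current symbol is H1-1 to H1-5 or belongs to the numbered H2AC, H2BC, H3C and H4C series, formerly HIST1, HIST2, HIST3 and HIST4 names. The rule found 68 members among the 60675 gene identifiers of the count table. There were 5 H1, 17 H2A, 18 H2B, 13 H3 and 15 H4 genes, of which 54 lie on chromosome 6, 13 on chromosome 1 and 1 on chromosome 12. Current symbols came from a gene name table for 64 members and from older names matched through RefSeq synonyms for 4.

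Histone mRNAs of this kind are made mainly in S phase, when NPAT and its partners switch on the clustered genes. Most end in a conserved stem-loop in place of a poly(A) tail, which SLBP binds and a U7 small nuclear RNP helps to cut, and they are destroyed quickly when DNA synthesis stops. Some of these genes can also give longer, polyadenylated transcripts when a cell leaves the cycle or differentiates, and libraries that select poly(A) RNA see mostly those.

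RNA was sequenced from HepG2, a human hepatocellular carcinoma line that divides in culture, in 60 libraries after 24 h. The vehicle group (3 libraries) received DMSO, 0.1% in the sample labels and 2% in the series text. Water extracts of the decoctions Yijin-tang (yijin, 3 libraries per dose) and Soshiho-tang (soshiho, 2 per dose) and 70% ethanol extracts of Liriopis seu Ophiopogonis Tuber (liriope), Schisandrae Fructus (schisandra), Longan Arillus (longan) and Zizyphi Semen (zizyphus), with 3 per dose, were given at 500 (high), 100 (medium) and 20 (low) µg/mL. Ethanol extracts of Polygalae Radix (polygala, 250, 50 and 10 µg/mL) and Aucklandiae Radix (aucklandia, 280, 56 and 11.2 µg/mL) had 1 library per dose, so they enter no test. The labels do not say that replicates were separate cultures, and p-values then measure only the spread between these libraries.

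The smallest library held 20.7 M expected counts and the largest 38 M. Levels are in CPM, counts scaled to a normalized library size of 1 M (M stands for mega). Of the hepatocyte markers checked, ALB ran from 6739 to 7345 CPM in vehicle. Of markers for other cell types, PTPRC, COL1A2 and DCN were at 0 in the 3 vehicle libraries, while CD68 was at 47.6 to 50.0 CPM, PECAM1 at 3.68 to 5.11 and VWF at 0.407 to 0.702. The replicate libraries low schisandra 1 and high liriope 2 stood apart over all genes, with an SD of log2 deviations from the group mean of 0.217 and 0.181 against 0.0639 to 0.144 in the other 52. Fewer cells in S phase and less histone RNA per cell cannot be told apart in bulk RNA.

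The sequences below are those of 4 members described under high aucklandia, chosen after their values were seen, and the link of their motifs to expression was not tested. Promoters were found for 63 members in the RefSeq promoter table of GRCh38.p14, which spans 250 bases before to 50 after the gene start. Capitals mark, on either strand, the octamer (ATTTGCAT), the CCAAT box (CCAAT), the TATA box (TATAAA) and the 5 letters GGTCC at the core of the H4 promoter element that HINFP binds.
H2BC4-H2AC6, 245 bases between H2BC4 (minus strand) and H2AC6 (plus strand) by their RefSeq starts, chr6:26123927-26124171, plus strand: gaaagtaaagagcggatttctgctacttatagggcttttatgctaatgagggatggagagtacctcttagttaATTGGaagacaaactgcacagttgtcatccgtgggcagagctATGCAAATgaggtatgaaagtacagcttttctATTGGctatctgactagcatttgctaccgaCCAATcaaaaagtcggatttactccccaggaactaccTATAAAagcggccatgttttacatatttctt
H2BC21, the 160 bases before its start, chr1:149886683-149886842, minus strand: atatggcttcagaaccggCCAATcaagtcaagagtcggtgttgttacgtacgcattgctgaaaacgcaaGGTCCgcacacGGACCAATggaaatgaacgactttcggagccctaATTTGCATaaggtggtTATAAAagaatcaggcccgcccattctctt
H4C8, the 160 bases before its start, chr6:26285535-26285694, minus strand: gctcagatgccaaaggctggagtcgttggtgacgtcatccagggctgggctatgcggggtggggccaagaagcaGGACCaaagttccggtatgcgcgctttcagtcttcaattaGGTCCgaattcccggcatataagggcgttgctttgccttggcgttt
In H2BC21 a GGACC and a CCAAT overlap. The octamer was in the promoters of 11 of 16 H2A and 14 of 18 H2B members, 1 of 11 H3 and 0 of 5 H1 and 13 H4 members, against 1.66% of all 27305 promoters. A CCAAT box was in 53 of 63 members (33.0% of all promoters), a TATA box in 42 (11.1%) and GGTCC in 12 of 13 H4 members (40.4%). A motif between neighbouring members on opposite strands, such as H2BC4 and H2AC6, can count for both. These counts are therefore not all of separate promoters.

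The 3′ ends of the same 4 genes are shown because annotated transcripts of these genes run on past the stem-loop. Capitals mark the stem-loop, which a search for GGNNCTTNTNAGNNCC with pairing stem letters in GENCODE 29 transcripts found in 31 members and in 18 of the 19616 other protein-coding genes (0.0918%). A loop beyond the end of a short model, such as those of H4C4 (312 bases) and H2BC12 (381), could not be found. A member without a hit may therefore still have the loop.
H2AC6, chr6:26124664-26124689 (GRCh38, plus strand): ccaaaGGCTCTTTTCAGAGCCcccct
H2BC4, chr6:26123467-26123492 (minus strand): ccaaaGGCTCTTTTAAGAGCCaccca
H2BC21, chr1:149886183-149886208 (minus strand): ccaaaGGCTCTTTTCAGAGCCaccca
H4C8, chr6:26285126-26285151 (minus strand): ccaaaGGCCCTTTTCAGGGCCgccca
Annotated transcripts go on past this loop by up to 1128 bases in H2AC6, 116 in H2BC4, 1729 in H2BC21 and 1655 in H4C8. A member was said to have an extended model when a transcript has more than 1 exon or runs over 200 bases past the loop, and 26 of 68 had one (3 H2A, 11 H2B, 6 H3, 6 H4 and 0 H1 genes). A poly(A) signal hexamer lies in the last 40 bases of a transcript in 20 of these 26 and in 3 of the other 42.

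In vehicle-treated cells the whole family was read at a low level. The 68 members summed to 42.2, 44.7 and 45.1 CPM in the 3 vehicle libraries, and the 8 members of the highest CPM held 62.7% of that sum. H2A genes gave 13.3 ± 0.516 CPM (SD, n = 3), H2B 12 ± 0.937, H3 6.67 ± 0.820, H4 6.56 ± 0.326 and H1 5.54 ± 1.18. Of the 68 members 32 passed the filter on low counts (2 H1, 9 H2A, 8 H2B, 5 H3 and 8 H4). H2AC25, H3C11, H4C6, H4C7 and H4C13 had 0 counts in every library, which allows up to 3 counts in each, or 0.0789 to 0.145 CPM, counting error only.

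Per kilobase of exon, the linker histone H1-2 had the highest vehicle level of the family, 7.92 ± 1.70 CPM per kb (SD, n = 3), and H1-4, another linker histone, had 0.511 ± 0.0841. The core histone H2A genes were led by H2AC19 (4.63 ± 1.23), which shares reads with its near-identical copy H2AC18, and by H2AC6 (3.49 ± 0.169). For H2B the order was H2BC21 (2.04 ± 0.144) and H2BC12 (1.94 ± 0.463), whose SDs overlap. H3C10 (3.61 ± 0.393) stood above H3C3 (1.47 ± 0.320), and H4C11 (4.82 ± 0.171) above H4C3 (0.939 ± 0.0836). The histone variant H2AX, which marks DNA breaks, measured 148 ± 17.9 CPM per kb on the same scale.

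**Figure D1:**
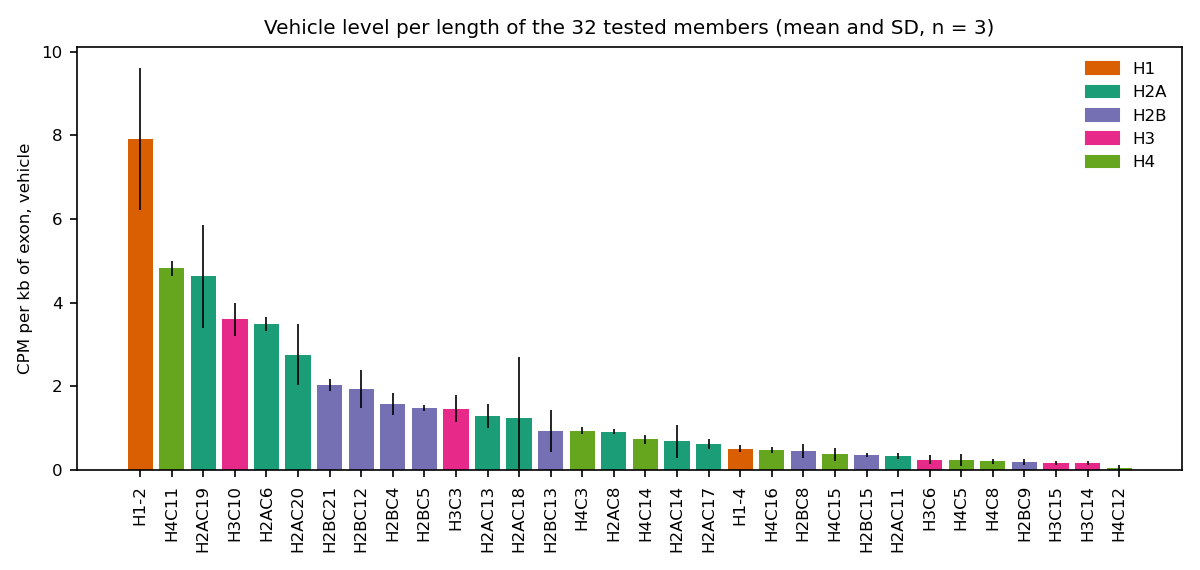
Vehicle level of the 32 tested members in CPM per kb of exon; bars are means and lines SDs of 3 libraries, coloured by histone class. H1-2, at 7.92, is highest, and H4C11, H2AC19, H3C10 and H2AC6 follow.

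The family's total changed little with the 6 replicated extracts. The summed level had group means from 41.2 ± 0.865 CPM (SD, n = 3) with medium zizyphus to 45.7 ± 4.53 (n = 2) with high soshiho. Single libraries ran from 40.3 to 48.9 CPM over the 51 treated libraries, a range that holds all 3 vehicle libraries. The libraries of high liriope (40.5 to 42.1 CPM), medium soshiho (41.1 to 41.8) and medium zizyphus (40.3 to 42.1) lay just below the lowest vehicle library, and no test was made of the sum. With library size alone as the scaling these groups overlapped vehicle (37.7 to 42.3 CPM), at 38.4 to 42.9, 40.4 to 41.1 and 40.4 to 42.3. The sum rests on 909 to 1737 counts per library. By class, treated libraries ran from 10.9 to 15.2 CPM for H2A, 9.83 to 14.5 for H2B and 4.05 to 6.92 for H1, each overlapping vehicle. The H3 sum was 4.77 to 6.92 in treated libraries and 5.73 to 7.22 in vehicle, and H4 was 6.17 to 9.61 against 6.19 to 6.82. The H4 sum, which contains the H4C3 gene described below, lay wholly above vehicle in every replicated treated group except high liriope and low schisandra. There the libraries not above vehicle were high liriope 2 (6.17 CPM) and low schisandra 1 (6.26), which stood apart over all genes. The other libraries of these groups had 7.36 and 8.80 CPM (high liriope) and 7.44 and 8.73 (low schisandra).

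**Figure D2:**
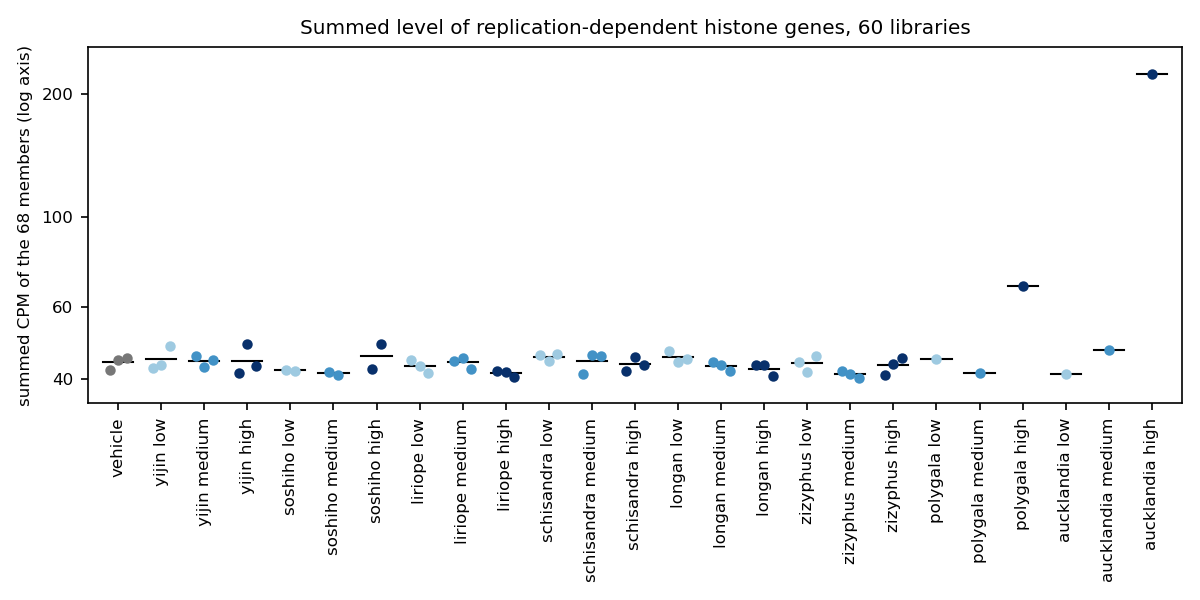
Summed CPM of the 68 members (log axis) in each of 60 libraries, by group; points are libraries, black lines group means, darker blue higher doses. The 54 libraries of vehicle and the replicated extracts sit between 40.3 and 48.9, high polygala is at 67.7 and high aucklandia at 224.

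High and low doses were compared first, because libraries of 1 extract share a set of sample codes that vehicle does not. In edgeR's quasi-likelihood test with Benjamini-Hochberg adjustment, 0 of 32 members were called between high and low dose in each extract. At an unadjusted p under 0.05 there were 2 members with yijin, 3 with soshiho, 1 with liriope, 3 with schisandra, 1 with longan and 3 with zizyphus, and DESeq2 also called 0 in each. Over all 16924 genes tested, the share called was 7.79% for yijin, 5.08% for soshiho, 0.0295% for liriope, 7.33% for schisandra, 0.0177% for longan and 0.0355% for zizyphus. The median log2 change of the members ran from -0.11 (zizyphus) to 0.06 (yijin), beside -0.01 to 0.01 over all genes. A test of whether the high vs low change differed among the 6 extracts also called 0 members, with 3 at an unadjusted p under 0.05, and 5.52% of all genes.

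The precision of this comparison depends on depth. For the 4 members with a mean of at least 3 CPM (H2AC6, H1-2, H3C10 and H2BC21) the 6 log2 changes lay between -0.34 and 0.35 with SEs of 0.11 to 0.21, and all their 95% intervals lay within -0.59 and 0.64. Members with few counts were far less certain, with SEs up to 3.70, so changes of 2-fold were not detectable in many of them.

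The smallest p between doses belonged to H2AC17, an H2A gene, with soshiho: 0.211 and 0.0808 CPM at the high dose and 0.478 and 0.408 at the low dose (log2 -1.58 ± 0.55 SE, adjusted p = 0.0959 in edgeR's quasi-likelihood test). H2BC9, an H2B gene, had 0.591 and 0.849 CPM at high and 0.257 and 0.245 at low soshiho (log2 1.51 ± 0.53, adjusted p = 0.10). For both genes the dose groups did not overlap, on few counts. These genes and those below were picked by their p between doses in these data. Dose groups that do not overlap are therefore no further support.
H2BC21 was 3.86, 3.50 and 3.16 CPM with high yijin and 4.49, 4.24 and 4.67 with low yijin (log2 -0.34 ± 0.12, adjusted p = 0.0847). With zizyphus it was 3.88, 3.06 and 3.42 at high and 3.97, 4.72 and 4.53 at low dose (log2 -0.34 ± 0.13, adjusted p = 0.832), and with soshiho 4.39 and 5.54 against 3.53 and 4.32 (log2 0.35 ± 0.15, adjusted p = 0.232). The dose groups stood apart in yijin, zizyphus and soshiho, lower at the high dose in the first 2 and higher in soshiho. None of these changes was called. The difference among extracts had an adjusted p of 0.0843 for this gene. Without high liriope 2, alone or together with low schisandra 1, H2BC21 was the 1 member called in that test.

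H3C10, an H3 gene with an extended model, was 3.57, 3.79 and 3.70 CPM with high schisandra and 5.00, 4.46 and 4.27 with low schisandra (log2 -0.32 ± 0.12, adjusted p = 0.0998). H2AC20, the gene that shares its promoter region with H2BC21, went the other way, 0.793, 1.17 and 0.924 CPM at high against 0.502, 0.627 and 0.572 at low schisandra (log2 0.77 ± 0.32, adjusted p = 0.148). H2AC14, another H2A gene, was 0.289, 0.646 and 0.336 CPM at high and 0.0793, 0.274 and 0.0762 at low schisandra (log2 1.60 ± 0.67, adjusted p = 0.15). The dose groups of these 3 genes did not overlap. With zizyphus, the H4 gene H4C5 was 0.395, 0.913 and 1.42 CPM at high and 0.420, 0.492 and 0.386 at low dose (log2 1.06 ± 0.39, adjusted p = 0.832). H2BC5 was 1.33, 1.96 and 1.31 CPM there against 1.26, 0.944 and 1.05 (log2 0.48 ± 0.23, adjusted p = 1), and H1-4 was 0.395, 0.319 and 0.576 against 0.229, 0.205 and 0.246 (log2 0.92 ± 0.46, adjusted p = 1). The groups of H2BC5 and H1-4 did not overlap, and those of H4C5 did. With longan, H2AC6 was 6.06, 5.43 and 5.30 CPM at high and 6.94, 5.96 and 7.11 at low dose (log2 -0.25 ± 0.12, adjusted p = 1). With liriope, H4C14 was 0.517, 0.605 and 0.355 CPM at high and 0.964, 1.48 and 0.549 at low dose (log2 -1.02 ± 0.54, adjusted p = 0.638). In both of these the groups overlapped.

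Near-identical gene copies share reads in this counting. H2AC18 ranged from 0 to 3.94 CPM over the 54 libraries and was at 0 in 4 of them, while H2AC19 was at 0 in 13. The levels of the 2 copies were inversely related (Pearson's r = -0.92 over 54 libraries, which share the reads of both), and their sum stayed between 2.13 and 3.99 CPM. H4C14 and H4C15 were also inversely related (r = -0.84), with a sum of 1.37 to 2.49 CPM, and the rows of H3C14 and H3C15 were identical in all 60 libraries. H2AC18 was 3.03, 3.07 and 0.924 CPM at high and 0.0793, 0.392 and 1.98 at low schisandra (log2 1.64 ± 0.85, adjusted p = 0.278), and once the pair was summed the difference was log2 -0.17 (adjusted p = 0.588). Without low schisandra 3, H2AC18 alone was called there.

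Against vehicle, H4C3 was the member that set the treated libraries apart. It measured 0.444, 0.372 and 0.409 CPM in vehicle, and in the 51 treated libraries of the replicated extracts the lowest was 0.687, the median 2.06 and the highest 3.97. All 51 lay above all 3 vehicle libraries, and the 2 lowest treated values, 0.687 and 0.721, came from low schisandra 1 and high liriope 2. It was higher by log2 2.28 ± 0.38 SE in the mean of the 6 low doses (adjusted p = 9.71e-06, edgeR's quasi-likelihood test) and by 2.19 (schisandra) to 2.51 (yijin) at the high doses (adjusted p from 2.28e-05 to 0.00029). Between high and low dose H4C3 did not pass the test in any extract. The call held in all 110 alternative fits of these 7 comparisons, with log2 1.75 to 2.91. H4C3 (chr6:26103876-26104310, GRCh38, plus strand) is a single-exon gene of 435 bases with no annotated overlapping gene and no extended model, and its vehicle value rests on about 10 counts per library.

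**Figure D3:**
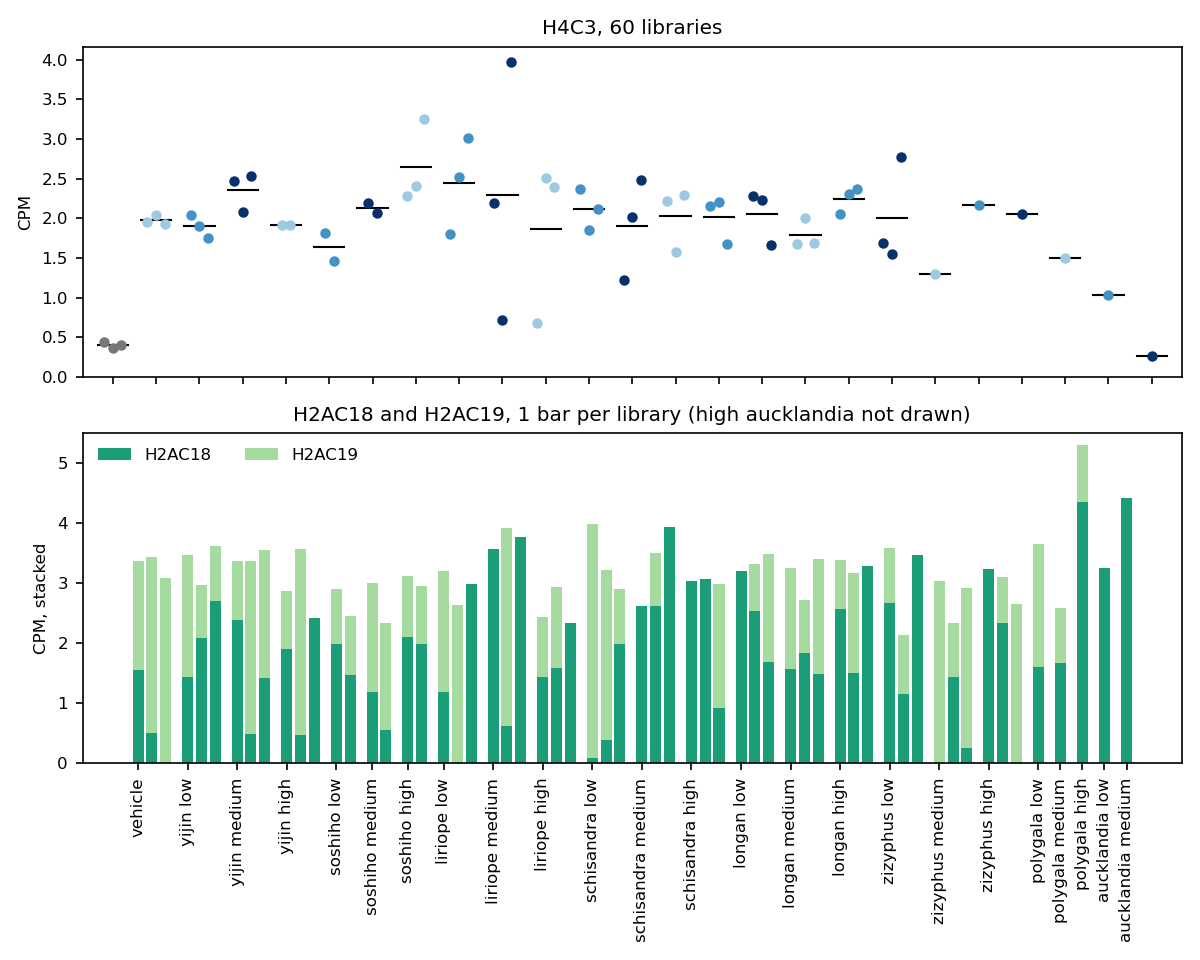
Upper panel, CPM of H4C3 in each of 60 libraries by group, with group means as lines; the vehicle libraries are at 0.372 to 0.444 and the replicated treated libraries at 0.687 to 3.97. Lower panel, stacked CPM of H2AC18 and H2AC19 with 1 bar per library, high aucklandia not drawn; the 2 copies trade places while their sum varies less.

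No treated library has the sample code found on vehicle, so treatment and sample set cannot be told apart here. Far more genes separated treated cells from vehicle than high from low doses: 27.6% of all tested genes were called in the mean of the 6 low doses. Of the members 2 were called there, H4C3 higher and H3C3 lower. H3C3, an H3 gene, was 0.481, 0.743 and 0.591 CPM in vehicle and 0.0988 to 0.650 in treated libraries (log2 of the low doses -0.72 ± 0.28, adjusted p = 0.0463), so its groups overlapped. RN7SL1, an RNA without a poly(A) tail, had 13.2, 25.3 and 27.9 CPM in vehicle and a median of 8.82 in the treated ones (5.18 to 26.1). The 14 RNAs of that list found in the table summed to 313 to 318 CPM in vehicle and 242 to 652 in the treated libraries, most of it MALAT1 (254 to 286 and 232 to 612). Of the 6 tested RNAs of that list 1 was called higher and 3 lower in the mean of the low doses, with a median log2 change of -1.11. The 6 markers of other cell types summed to 51.8 to 55.5 CPM in vehicle and 34.8 to 58.9 in treated libraries (of which CD68 was 30.1 to 53.5 and PECAM1 3.17 to 5.30 in treated libraries, VWF at most 1.25, PTPRC 0.0899, COL1A2 0.0840 and DCN 0.0420). Their part in the histone differences was not tested.

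At the high doses 1 to 3 of 32 members were called against vehicle in each extract. Yijin had 3 (23.4% of all genes called), soshiho 3 (21.8%), liriope 3 (16.8%), schisandra 1 (22.1%), longan 1 (19.6%) and zizyphus 3 (16.9%). These comparisons share the 3 vehicle libraries. H4C3 was called in all 6 and was higher in each.
H2BC21, at 4.37, 4.21 and 4.82 CPM in vehicle, fell by 0.34 ± 0.12 on the log2 scale with yijin (adjusted p = 0.0391), by 0.39 ± 0.12 with liriope (3.42, 3.95 and 2.80 CPM, adjusted p = 0.0262) and by 0.36 ± 0.13 with zizyphus (adjusted p = 0.0413). H3C10 was 4.92, 4.50 and 3.95 CPM in vehicle and 3.50, 3.04 and 3.68 with high yijin (log2 -0.40 ± 0.12, adjusted p = 0.0139). The groups did not overlap for either gene, but both were named because they were called, so this adds no support. H2AC13 rose with soshiho, from 0.778, 0.495 and 0.682 CPM in vehicle to 1.27 and 1.45 (log2 1.05 ± 0.35, adjusted p = 0.0255), and H3C3 fell there to 0.127 and 0.364 CPM (log2 -1.27 ± 0.46, adjusted p = 0.0418). H4C5 rose with zizyphus from 0.185, 0.289 and 0.591 to 0.395, 0.913 and 1.42 CPM (log2 1.38 ± 0.41, adjusted p = 0.016), with overlapping groups. H4C14 was 1.3, 1.61 and 1.23 CPM in vehicle and 0.517, 0.605 and 0.355 with high liriope (log2 -1.46 ± 0.53, adjusted p = 0.0499), but summed with its copy H4C15 the difference was -0.17 with an adjusted p of 0.544.

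Of the 16 calls against vehicle, the 7 of H4C3 held and each of the other 9 was lost without at least 1 library. H2BC21 lost its call in yijin without vehicle 1 or 3 or high yijin 2 or 3 (adjusted p 0.0663 to 0.166), in liriope without vehicle 1 or 3 or high liriope 1 or 3 (0.0507 to 0.188), and in zizyphus without vehicle 1 or 3 or high zizyphus 2 or 3 (0.0782 to 0.171). H3C10 lost it without vehicle 1 or high yijin 2 (0.0988 and 0.103). H2AC13 lost it without vehicle 2 or either high soshiho library (0.0753 to 0.169). H4C5 lost it without vehicle 1 or 2 or high zizyphus 3 (0.0642 to 0.205). H4C14 lost it without any 1 of the 6 libraries compared (0.0574 to 0.154). H3C3 lost it in soshiho without vehicle 2 or 3 or high soshiho 2 (0.064 to 0.444), and in the low doses without any vehicle library (0.0534 to 0.265), low yijin 1 or 2, low soshiho 3, low liriope 2, low schisandra 3, low longan 1 or 2, or low zizyphus 2 or 3 (0.0519 to 0.0743).

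The genes that run S phase and histone mRNA metabolism were compared between the same doses, where 7.79% of all genes were called with yijin, 5.08% with soshiho and 7.33% with schisandra. Of 42 S phase and DNA replication genes, 3 were called higher at high than low yijin, 2 lower with soshiho and 2 higher with schisandra, with 0 in the other 3 extracts, and the list's median log2 change lay between -0.03 and 0.04. RRM2, a ribonucleotide reductase subunit, rose by log2 0.18 ± 0.04 and CDC45, a helicase component, by 0.26 ± 0.07 with yijin (adjusted p = 0.00306 and 0.0116), while MCM3, another helicase subunit, fell by 0.15 ± 0.04 on the log2 scale with soshiho (adjusted p = 0.0116). Among 11 genes of histone transcription, YY1 fell with soshiho (log2 -0.19 ± 0.05, adjusted p = 0.00566) and CDK2 and CCNA2 fell with schisandra (-0.15 ± 0.04 and -0.25 ± 0.07, adjusted p = 0.0072 and 0.0156). Of 23 genes of histone mRNA 3′ processing and decay, 3 were higher with yijin, 1 with soshiho and 1 with schisandra, among them the exonuclease gene ERI1 (log2 0.27 ± 0.07 with yijin, adjusted p = 0.00613), CSTF2 (0.20 ± 0.05 with yijin, adjusted p = 0.0149) and NCBP2 (0.26 ± 0.05 with schisandra, adjusted p = 0.00112). Of 19 histone chaperone genes, 2 were higher and 1 lower with yijin (IPO4, log2 0.17 ± 0.04, and ASF1B, -0.25 ± 0.06, adjusted p = 0.00276 and 0.00383), 1 was higher with soshiho and 1 lower with schisandra (RBBP7, -0.15 ± 0.04, adjusted p = 0.0116). Of 11 replication-independent histone genes, 3 were lower with yijin, 2 with soshiho and 2 with schisandra, including MACROH2A2 (log2 -0.34 ± 0.06) with yijin and H2AZ2 (-0.24 ± 0.06) with soshiho (adjusted p = 6.76e-05 and 0.019). No gene of these 5 lists was called with liriope, longan or zizyphus, where at most 0.0355% of all genes were called.

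The high dose of aucklandia had the highest summed histone level of the 60 libraries. The members summed to 41.3 CPM (1130 counts) at 11.2 µg/mL, 47.3 (1146) at 56 and 224 (4977) at 280, a ratio of high to low of 5.42 (95% interval 5.08 to 5.78, exact binomial on counts, counting error only). The 58 libraries other than the high doses of aucklandia and polygala lay between 40.3 and 48.9 CPM. H2A genes went from 11.9 to 15.0 and 94.8 CPM over the 3 doses, H2B from 11.6 to 12.3 and 74.7, H1 from 4.10 to 5.78 and 18.5, H4 from 7.50 to 6.89 and 18, and H3 from 6.33 to 7.38 and 17.9. This is 1 library, the smallest of the series at 20.7 M counts, so these differences have no replicate check.

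To count members without using the compared libraries, only the 21 with a mean of at least 0.5 CPM over the 54 other-extract and vehicle libraries were kept, and ratios were taken of CPM + 0.1. Of these 21, 15 were at least 2-fold higher at the high than at the low dose of aucklandia, against 10.5% of 14608 genes kept in the same way, and 2 were at least 2-fold lower, against 13.9%. The median log2 ratio was 1.77 for the members and -0.06 for all genes. With near-identical copies summed, 14 of 20 members were at least 2-fold higher (10.5% of genes) and 2 lower (13.9%). In this library 30.4% of genes lay above all 58 other libraries and 35% below all of them. Of the 21 members 15 lay above and 3 below. Of all 68 members, which include those with few or 0 counts, 29 lay above. The share of all genes without the level filter was not taken, so this last count has nothing to be set against.

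H2AC6 had 5.45, 7.76 and 49.9 CPM from low to high aucklandia, a ratio of high to low of 9.16 (7.71 to 10.9), and its highest value in the 58 other libraries was 8.06. H2BC4, which lies on the other strand (218 bases between the starts in GENCODE 29, whose H2AC6 start falls inside the printed interval) and shares the promoter region printed above, had 0.988, 1.57 and 19.3 CPM, a ratio of 19.5 (13.2 to 29.9). H2BC21, with its octamer next to a TATA box, had 4.35, 3.51 and 28.8 CPM (ratio 6.61, 5.43 to 8.11). In all 3 the larger step was between the medium and the high dose.
H2AC18, the member with the largest ratio of those above 1 CPM at both doses, went from 3.26 to 30.7 CPM, and summed with H2AC19 the pair had 3.26, 4.41 and 36.4 CPM (ratio 11.2, 8.97 to 14.1). The linker histone H1-2 had 3.95, 5.53 and 18 CPM (ratio 4.57, 3.68 to 5.70). H4C8, whose promoter holds GGTCC on both strands and no octamer, had 0.878, 0.908 and 8.59 CPM (ratio 9.79, 6.38 to 15.7). H2BC15 had 2.71, 3.09 and 11.2 CPM (ratio 4.15, 3.19 to 5.46), although its model is long and overlaps other histone genes on both strands. The identical rows H3C14 and H3C15 together had 0.585, 0.330 and 8.28 CPM (ratio 14.1, 8.48 to 25.3). H2BC4, H4C8, H2BC15, H3C14 and H3C15 were named after their values were seen.

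**Figure D4:**
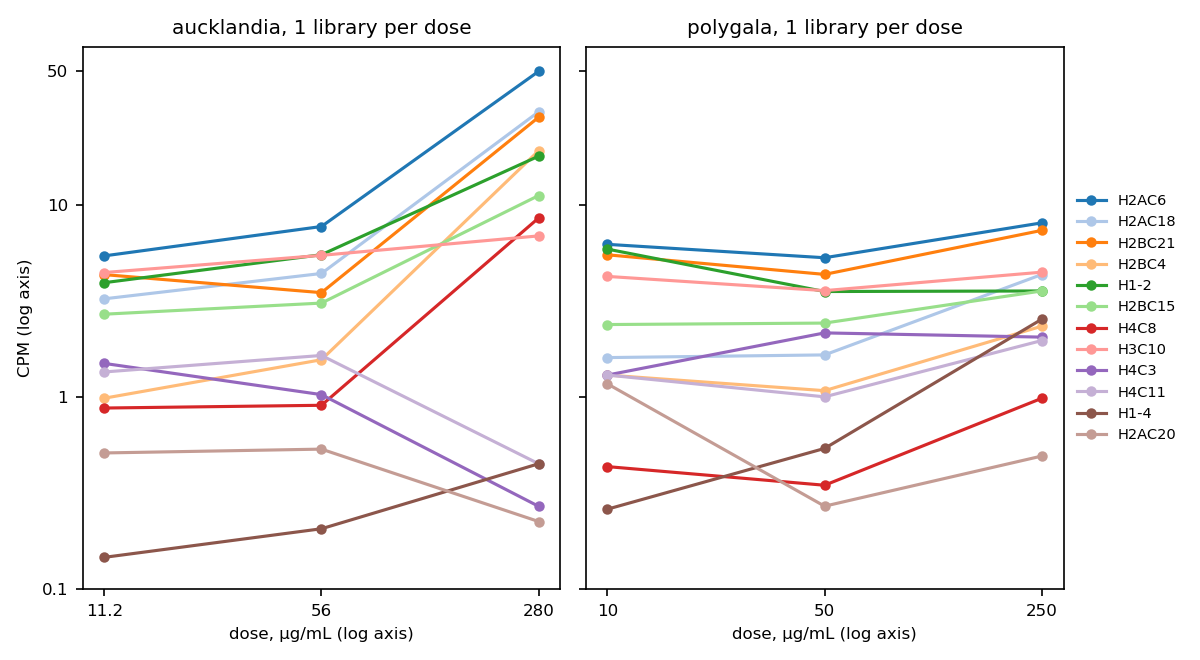
CPM (log axis) of 12 members against dose (log axis) for aucklandia and polygala, 1 library per dose. H2AC6, H2AC18, H2BC21 and H2BC4 reach 49.9, 30.7, 28.8 and 19.3 CPM at 280 µg/mL of aucklandia while H4C3, H4C11 and H2AC20 go down; in polygala the largest change drawn is that of H1-4.

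Not all members were higher at this dose. H4C3 had 1.5, 1.03 and 0.270 CPM (ratio 0.18, 0.0624 to 0.426), and H4C11, the H4 gene with the highest vehicle level per length, 1.35, 1.65 and 0.450 (ratio 0.332, 0.147 to 0.682). H2AC20 had 0.512, 0.536 and 0.225 CPM on 14, 13 and 5 counts, a ratio of 0.439 whose interval (0.124 to 1.29) spans 1. All 3 lay below the other 58 libraries. H4C16, the histone gene on chromosome 12, had 1.28, 1.07 and 1.3 CPM (ratio 1.02, 0.601 to 1.72), the smallest ratio of those above 1 CPM at both doses. H3C10 was higher by less than 2-fold, with 4.46, 5.49 and 6.93 CPM (ratio 1.55, 1.22 to 1.98), and lay above the other 58 libraries. H2AC20 lies on the other strand from H2BC21, with 322 bases between their GENCODE 29 starts, and only H2BC21 of that pair was higher at the high dose, while H2BC4 and H2AC6 were both higher. H2AC20 is named here after its values were seen.

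Members with and without an extended model were both among the higher ones. Of the 13 members with an extended model among the 21, 10 were at least 2-fold higher and 0 lower, and of the 8 without one 5 were higher and 2 lower. Near-identical copies count as separate members here. H1-2, H2AC18 and H2AC19 were high without an extended model. With one, H4C16 was near its low-dose level and H3C10 was higher by less than 2-fold. The summed level of extended members went from 26.5 to 157 CPM between low and high dose and that of the other members from 14.9 to 66.7. The lack of an extended model does not show how a transcript ends. The models of H2AC18 and H2AC19 run 35 bases past the loop and hold a poly(A) signal hexamer near their end. In the 642-base model of H1-2 no loop was found. The split by extended model was chosen after values were seen and was not tested.

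**Figure D5:**
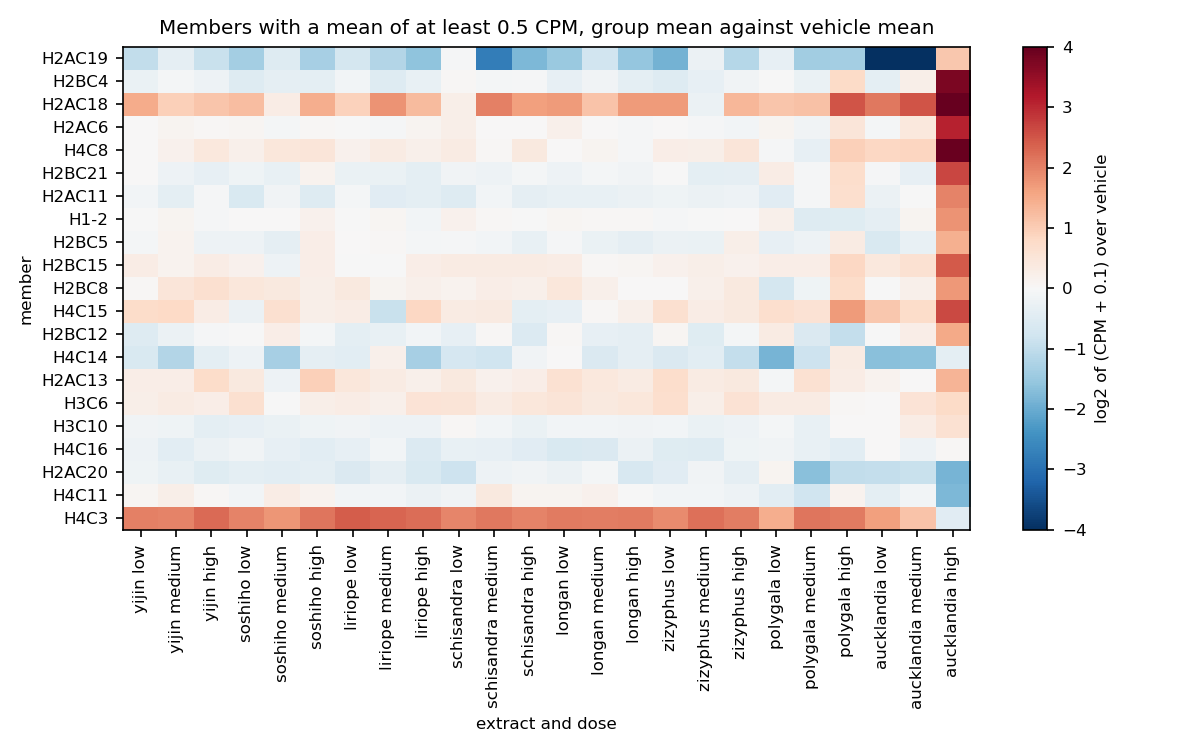
Log2 of (CPM + 0.1) over the vehicle mean for the 21 members with a mean of at least 0.5 CPM, by extract and dose (columns); red is higher, blue lower, and colours end at -4 and 4. The high aucklandia column holds deep red for H2AC6, H2BC4, H2BC21 and H4C8, and H4C3 is red in every replicated extract column; H2AC18 and H2AC19 share reads.

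Other genes of the pathway, taken from lists, stood as follows in high aucklandia. Genes given as higher or lower are named because they passed the 2-fold cut in this library. NPAT and SLBP were named after their values were seen. Of all genes kept by level, 10.5% were at least 2-fold higher and 13.9% lower between these doses. Of 42 S phase genes 26 were at least 2-fold lower than at the low dose and 0 higher, with a median log2 ratio of -1.09; the helicase subunit MCM2 had 219, 209 and 58.3 CPM and UHRF1 187, 179 and 32.7 (both named after their values were seen). Of 11 histone transcription genes 0 were higher and 2 lower (CDK2, 54 to 26.1 CPM, and the cyclin gene CCNA2, 144 to 49.4), and NPAT had 20.5, 18 and 22 CPM. Of 23 processing and decay genes 2 were higher, the uridylyltransferase gene TUT7 (27.8 to 64.5 CPM) and the U7-associated ZNF473 (16.5 to 35.4), and 1 was lower, while SLBP had 67.3, 72.4 and 66.7 CPM. Of 19 chaperone genes 7 were lower and 0 higher. Of 11 replication-independent histone genes 1 was lower and 0 higher.
Of 4 RNAs without a poly(A) tail that passed the level filter 1 was higher, MALAT1, with 370, 490 and 924 CPM, whereas RN7SL1 had 6.95, 5.53 and 10.8. Of 8 hepatocyte markers 2 were at least 2-fold lower (13.9% of all genes kept) and 0 higher (10.5%), and ALB had 7045, 6731 and 4828 CPM. The 6 markers of other cell types summed to 42.0, 53.0 and 75.9 CPM, with CD68 at 69.2 in high aucklandia, PTPRC and COL1A2 at 0.0450 and DCN at 0. The part of these genes in the histone levels was not tested.

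In high polygala the family's total was also above the other 58 libraries, by less. The members summed to 45.0 CPM (1034 counts), 41.4 (1071) and 67.7 (1645) at 10, 50 and 250 µg/mL, a ratio of high to low of 1.5 (95% interval 1.39 to 1.63). Of the 21 members kept, 6 were at least 2-fold higher (5.94% of genes) and 3 lower (12.2%), with a median log2 ratio of 0.56 against 0.00 over all genes. Copies that share reads count separately there, with H2AC18 among the higher and H2AC19 among the lower. With near-identical copies summed, 5 of 20 members were higher (5.94%) and 2 lower (12.2%). In that library 30.6% of genes lay above all 58 other libraries and 31.9% below. Of the 21 members 6 lay above, about the share of all genes, and 0 below. Of all 68 members, with no level filter and no matching share of all genes, 27 lay above. High polygala had 21 M counts.
The linker histone H1-4 had 0.261, 0.541 and 2.55 CPM over the 3 doses (ratio 9.77, 4.25 to 27.7), and its highest level in the other 58 libraries was 0.576. H1-5, another linker histone, had 0, 4 and 15 counts. H4C5 had 0.478, 0.425 and 1.60 CPM (ratio 3.35, 1.68 to 7.26). H2AC18 had the largest ratio of members above 1 CPM at both doses (1.61 to 4.36 CPM, 2.71, 1.85 to 4.05), but with H2AC19 added the pair gave 3.65, 2.59 and 5.31 CPM (ratio 1.45, 1.10 to 1.94). H1-2 had the smallest, with 5.91, 3.55 and 3.58 CPM (ratio 0.605, 0.457 to 0.798). H1-4, H1-5 and H4C5 were named after their values were seen.

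The high doses of aucklandia and polygala differ, so their values are set side by side only. H2AC6 was 49.9 CPM in high aucklandia and 8.10 in high polygala, H2BC4 19.3 and 2.34, H2BC21 28.8 and 7.40, H1-2 18 and 3.58, H1-4 0.450 and 2.55, and H4C3 0.270 and 2.06. Between the high and low dose of polygala, 12.2% of all genes kept by level were at least 2-fold lower and 5.94% higher. In high polygala 8 of 42 S phase genes were at least 2-fold lower than at the low dose and 0 higher (MCM2 223 to 66.5 CPM, named after its values were seen). There 7 of 8 hepatocyte markers were also at least 2-fold lower, with ALB at 7415, 6232 and 3441 CPM over the 3 doses. The 6 markers of other cell types summed to 51.7, 35.9 and 15.5 CPM. The part of these genes was not tested.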

How the data were processed

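The authors deposited 1 table of expected counts per gene for 60 libraries, made, per the submitters' processing notes, with FastQC 0.11.9, Trim Galore 0.6.5, STAR 2.7.3a and RSEM 1.3.3 on hg38. RSEM divides a read that matches several genes among them, which matters for histone copies. The annotation release used is not given in the sources used here. Per the labels' protocols, directional mRNA libraries were made from RNA of integrity number over 7 and sequenced as 100-base pairs. Values were rounded before fitting, since 10.4% were not whole.

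The 54 libraries of the 19 groups with replicates were fitted together with edgeR 4.0.16 in R 4.3.3 (quasi-likelihood, 1 mean per group, TMM normalization, filterByExpr, 16924 genes), and p-values were adjusted over all genes and called under 0.05. DESeq2 1.42.0 was an alternative. SEs were taken as the absolute log2 change divided by the square root of the quasi-likelihood F statistic. The 95% intervals of a log2 change are normal intervals from that SE. The fit was tested on simulated data. CPM use TMM-normalized library sizes over all 60 libraries. Exon lengths, coordinates and transcripts are those of GENCODE 29 (GRCh38). Of the 60675 identifiers counted, 57055 are in that release, so these models can differ from those used for counting.

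Of 51 replicate pairs 0 were identical, and their counts differed by more than sampling noise (chi-square per degree of freedom 2.70 to 63.9). Library totals of 20.7 to 38 M counts set the precision. Counts are compositional, so levels are relative to the other genes.

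Members, lists and tests were chosen with earlier results of these data known. Named members are the 2 highest per class per length in vehicle, the 12 with the smallest high vs low p, those called against vehicle, and the largest and smallest ratios in polygala and aucklandia, and from each list the 3 genes with the smallest high vs low p; others are said to be named after their values were seen. Wortmannin is not analysed here. 1 gene that the rule names from the lists is not reported here.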

Additional observations from a re-analysis of the deposited data

How the results depend on the processing

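Counts of called members were small, so 1 gene moves them. Without the filter on low counts, members with too few counts to pass it were tested beside the 32. Counts in this setting are therefore over a larger set and cannot be set directly against those with the filter. The share of all genes called in this setting is not given here. The calls between high and low dose then numbered 1 (yijin), 2 (liriope) and 2 (schisandra), where 0 of the 32 were called with the filter. Those of high dose against vehicle numbered 7 (liriope), 3 (schisandra), 3 (longan) and 7 (zizyphus). There were 4 in the mean of the low doses and 6 differing among extracts. With library size alone as the scaling, liriope against vehicle had 1 and the mean of the low doses 4. Without the 2 libraries that stand apart (an alternative chosen after seeing the data), liriope against vehicle had 5 and 1 member differed among extracts. With only the libraries compared in the fit, longan against vehicle had 2 and zizyphus 1. DESeq2 called 1 in zizyphus against vehicle and 1 in the mean of the low doses. Leaving out 1 library at a time gave 0 between high and low dose, except 0 to 1 in schisandra, and against vehicle 1 to 4 (yijin), 1 to 3 (soshiho), 1 to 3 (liriope), 1 to 2 (schisandra), 1 to 2 (longan) and 1 to 3 (zizyphus), with 1 to 2 in the mean of the low doses and 0 to 1 differing among extracts.

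With CPM + 0.5 in place of CPM + 0.1, 1 of 21 members was at least 2-fold lower in high aucklandia (11.6% of genes). In polygala, 2 of 21 members were at least 2-fold higher with CPM + 0.5 (4.46% of genes) and 3 of 21 against the vehicle mean (6.91%). A level filter of 0.2 CPM kept 31 members, of which 13 were higher (7.12%). Members at least 2-fold lower numbered 0 of 21 with CPM + 0.5 (10.1%), 1 with library size alone (8.43%) and 1 against the vehicle mean (12.9%). With library size alone the summed CPM was 40.6 in vehicle, 240 in high aucklandia and 78.3 in high polygala, and the median log2 ratio of all genes became 0.03 in aucklandia and 0.24 in polygala. H2AC18 between high and low schisandra turned to log2 -0.17 with near-identical pairs summed. Of 411 alternative values of the 28 named member results, 346 kept their direction and side of the threshold, 62 lost the call, 2 gained one and 1 reversed. The cause of these moves was not tested.

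The labels give no shared source for a replicate number, and of 34 same-numbered pairs compared 14 correlated above 0.1, so the numbers were not treated as pairs. As a hint from the data, 34 of 54 libraries correlated best with their own number (mean correlation 0.0334 for the same and -0.0167 for different numbers). With a replicate block, high liriope against vehicle had 2 calls in place of 3 (H4C14, adjusted p = 0.0526), and the other counts were as without it.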
